A study of Mus musculus with 43 samples.

Results

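A tRNA gene locus is a single genomic copy of a tRNA gene. Several copies with the same mature sequence form 1 isodecoder, so tRNA-Gly-GCC-2-6 is copy 6 of isodecoder 2 with the anticodon GCC. The loci described here were the rows of the 3 deposited count tables that carry a locus name, without the endings that mark full-length tRNAs, tRNA fragments (tRFs) or antisense reads of an isodecoder. There were 351 such loci among 5364 listed RNAs, and they covered 173 isodecoders and 49 anticodons. Of these, 338 were listed for tissue, 235 for fluid and 212 for sperm, and 186 for all 3 materials.

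The small RNAs came from FVB mice aged 8 to 12 weeks that were wild type (WT) or lacked the 4 genes from Rnase9 to Rnase12 (KO). Epididymis tissue was sequenced by ARM-seq, with 3 libraries per genotype for the caput and the cauda, and with 3 WT and 2 KO libraries for the corpus. Epididymal fluid, freed of sperm, vesicles and debris, was sequenced by OTTR-seq with 3 WT and 3 KO libraries of each segment, and cauda sperm with 4 libraries of each genotype. All RNA was treated with T4 polynucleotide kinase (PNK) before library construction, and the fluid and sperm RNA was pooled from several mice. The 4 deleted genes have no rows in these tables, so the genotypes could not be checked on them. For 7 caput libraries a label gave the section as cauda, whereas their titles gave caput, and the titles were used.

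RNA polymerase III transcribes a tRNA gene into a precursor with a 5′ leader and a 3′ trailer. RNase P removes the leader, RNase Z (Elac2) removes the trailer, a CCA end is added, and the introns of a few anticodon families are spliced out. The finished tRNA can later be cut into fragments, also by some secreted enzymes of the RNase A family to which Rnase9-12 belong. For the recombinant proteins of Rnase9-12 themselves, the study detected no cleavage of tRNAs in vitro. In the study's mapping, a read whose best match included a mature tRNA lost its matches elsewhere. Read this way, a count on a locus row is a read that matched the genomic copy better than any mature tRNA, through a leader, a trailer, an intron or a base particular to that copy. The mice were FVB and the mm10 genome is that of C57BL/6J, and the part of strain differences in these counts was not tested.

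What such a transcript carries beyond the mature tRNA can be seen in the serine tRNA gene n-TStga1 (anticodon TGA). It has a row under this gene name, which is not among the 351 locus rows. RefSeq gives no locus name for the gene, so whether it is also listed among the 351 loci could not be checked. By RefSeq and GENCODE on GRCm38 (mm10), its transcript lies at chr13:23518142-23518250 on the plus strand, with 4 leader and 23 trailer bases around the tRNA. The trailer, at chr13:23518228-23518250, is shown because such flanks are absent from the mature tRNA and tell gene copies apart.
n-TStga1 trailer: tgaatgtattttcttgacatgta
In WT fluid the n-TStga1 row held 28, 45 and 73 counts in the caput and 376, 166 and 162 counts in the cauda. It was higher in WT cauda than in WT caput fluid by 1.77 on the log2 scale (SE 0.54, adjusted p = 0.0202).

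Locus counts were a small part of each library. Library totals were 30142156 to 249732714 counts for tissue, 1948718 to 12320922 counts for fluid and 1134840 to 62128314 counts for sperm, and the loci took 16906 to 166502, 984 to 8068 and 98 to 6804 of them. Each of the nonzero locus values was even, whereas 52.5% to 52.9% of the other nonzero values were odd, so 1 match appears to have been entered as 2 counts, and counts are given as deposited. Over the listed loci, the median of the mean count per library was 37.4 for tissue, 5.67 for fluid and 4.12 for sperm. For 21 tissue, 22 fluid and 26 sperm loci, another locus had exactly the same counts in every library, and such copies cannot be told apart.

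In fluid, the locus share differed between genotypes in the caput and the corpus. In caput fluid the loci took 0.0463%, 0.0509% and 0.0478% of all counts in the WT libraries and 0.085%, 0.0738% and 0.058% in the KO libraries. In corpus fluid they took 0.0388%, 0.0388% and 0.0377% in WT and 0.055%, 0.0556% and 0.0505% in KO. The groups did not overlap in either segment, and the mean share was 1.5 times as high in KO caput fluid and 1.4 times as high in KO corpus fluid. No p-value is given for a sum over the loci. In cauda fluid WT (0.0468% ± 0.0143, SD, n = 3) and KO (0.0458% ± 0.0199, n = 3) overlapped.

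In tissue the share was 0.0525% ± 0.00742 (SD, n = 3) in WT and 0.0615% ± 0.0122 in KO caput, which overlapped. In corpus tissue the loci took 0.078%, 0.0638% and 0.0705% of all counts in WT and 0.0606% and 0.0621% in KO, so KO lay below WT without overlap there, opposite to corpus fluid. In cauda tissue the share was 0.0674% ± 0.0329 in WT and 0.0619% ± 0.00864 in KO, which overlapped. The spread in WT cauda came from 1 library, replicate 3, at 0.105%, beside 0.0535% and 0.0437% in the others. In sperm the share was 0.00838% ± 0.00338 in WT (n = 4) and 0.00728% ± 0.00164 in KO (n = 4), below every tissue and fluid library. Tissue was sequenced by ARM-seq and fluid and sperm by OTTR-seq, so the material and, for tissue, the method cannot be told apart.

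**Figure D1:**
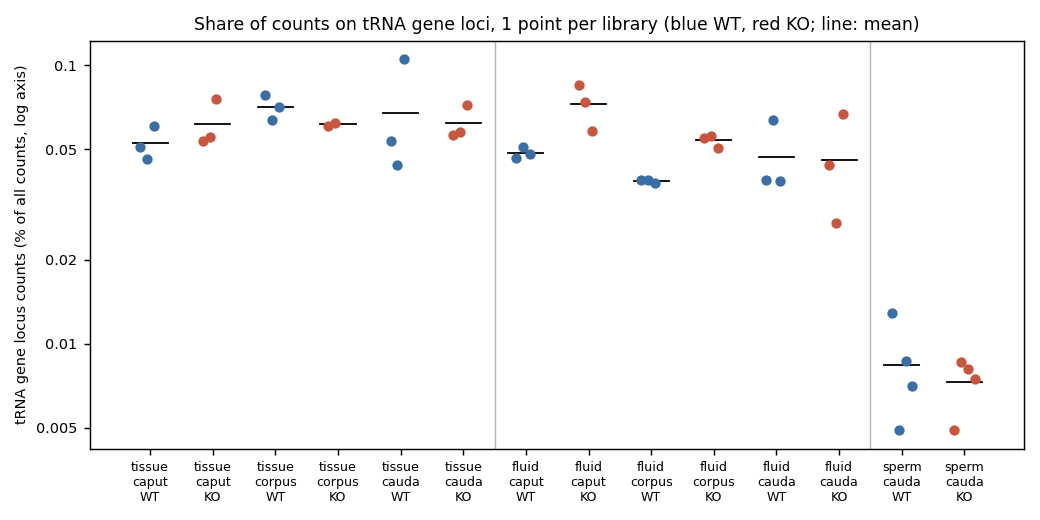
Counts on tRNA gene loci as a percent of all counts of a library (y axis, log scale), 1 point per library with the group mean as a line, for tissue, fluid and sperm by segment and genotype. KO lies above WT without overlap in caput and corpus fluid, and the sperm libraries lie between 0.0049% and 0.0129%, below all others.

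Set against the mature tRNA rows of the same library, the loci were most prominent in KO cauda tissue. There were 2.75 ± 0.611 (SD, n = 3) locus counts per 100 mature tRNA counts in WT cauda tissue and 6.1 ± 2.47 in KO cauda tissue, and these groups touched at 3.4. In each pair of same-numbered libraries KO was above WT (2.65 and 6.66, 3.4 and 8.25, 2.19 and 3.4). The ratio was 1.25 ± 0.101 in WT and 1.68 ± 0.265 in KO caput tissue and 3.0 ± 1.14 in WT and 2.95 ± 0.0849 (n = 2) in KO corpus tissue. The mature rows moved at the same time, since they took 2.02%, 1.29% and 4.8% of all counts in WT cauda tissue and 0.842%, 0.699% and 2.11% in KO. In fluid the ratio was 0.0488 to 0.0894 in the group means, and in sperm 0.213 in WT and 0.25 in KO.

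A few copies held much of the signal. The 10 most abundant loci took 42.8% of the locus counts in tissue, 41.9% of those in fluid and 44.3% of those in sperm, and 18 different loci made up these lists. The locus tRNA-iMet-CAT-1-1, a gene of the initiator tRNA that starts translation, led in tissue with a mean of 92.8 CPM (counts relative to the TMM-scaled library size) and in sperm with 14.5 CPM. In fluid it had 27.3 CPM. The tyrosine locus tRNA-Tyr-GTA-2-1 followed in tissue (37.0 CPM) and was also among the 10 in fluid (22.4 CPM) and sperm (2.4 CPM). The elongator methionine locus tRNA-Met-CAT-1-2 was the only other locus in all 3 lists.

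The lists also differed between materials. In tissue they continued with the leucine loci tRNA-Leu-CAA-2-1 (19.8 CPM) and tRNA-Leu-CAA-3-1 (19.1 CPM) and with loci of Glu-CTC, Lys-CTT and His-GTG. In fluid the first ranks were tRNA-Met-CAT-1-1 (36.6 CPM) and tRNA-Gly-GCC-2-6 (34.2 CPM), followed below tRNA-iMet-CAT-1-1 by tRNA-Tyr-GTA-2-1 and tRNA-Asn-GTT-3-7 (21.4 CPM). In sperm the 10 included tRNA-Arg-ACG-3-2 (1.68 CPM) and tRNA-Ile-TAT-2-3 (1.18 CPM). Across loci, the mean levels of tissue and fluid had a Spearman's rho of 0.53 (225 loci), those of tissue and sperm 0.36 (203 loci) and those of fluid and sperm 0.59 (192 loci). These are descriptions across loci that share libraries and are not independent.

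**Figure D2:**
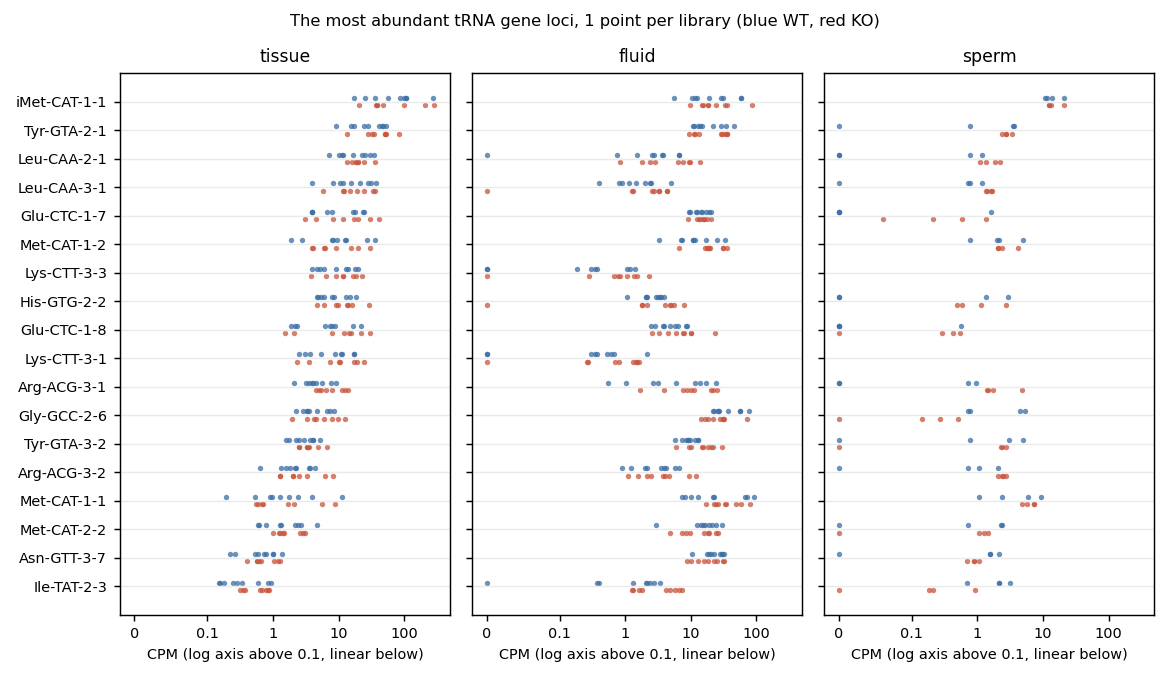
CPM of the 18 most abundant tRNA gene loci in every library of tissue, fluid and sperm (x axis, log scale above 0.1 and linear below), 1 point per library, WT blue and KO red. tRNA-iMet-CAT-1-1 is high in all 3 materials, whereas tRNA-Met-CAT-1-1, tRNA-Gly-GCC-2-6 and tRNA-Asn-GTT-3-7 are among the highest in fluid and reach at most 12.4 CPM in a tissue library.

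For a minority of isodecoders 1 copy held most of the locus counts. Of isodecoders with more than 2 loci and at least 200 locus counts, 9 of 30 in tissue had a copy with 50% or more of those counts, as had 9 of 19 in the fluid table and 2 of 9 in the sperm table. The leading copy was the same in tissue and fluid for 18 of 29 isodecoders with more than 1 locus. tRNA-iMet-CAT-1-1 took 85.7% ± 5.16 (SD, n = 3) of the counts of its isodecoder's copies in WT caput tissue, 95.5% ± 1.54 in WT cauda tissue, 88.3% ± 2.01 in WT cauda fluid and 92.4% ± 7.92 (n = 4) in WT sperm. tRNA-Tyr-GTA-3-2 likewise took 84% to 90.2% in the tissue groups and 87.3% to 96.8% in the fluid groups.

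Other isodecoders had a different leading copy in tissue and in fluid. tRNA-Met-CAT-1-1, 1 of 2 copies, took 12.3% ± 3.14 of its isodecoder's locus counts in WT caput tissue and 75.7% ± 3.57 in WT caput fluid, and 62.1% ± 19.7 in WT sperm. tRNA-Gly-GCC-2-6 took 14.5% ± 2.24 in WT caput tissue and 62.1% ± 3.45 in WT caput fluid, and tRNA-Asn-GTT-3-7 took 12.0% ± 4.26 and 65.3% ± 9.63. The ranges of the tissue and the fluid libraries did not overlap for these 3 copies in WT or KO. Because the 2 materials were sequenced by different methods and counted in different tables, no test was made.

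The anticodons whose mouse genes carry introns (Tyr-GTA, Leu-CAA, Ile-TAT and, for some copies, Arg-TCT) had 19 loci in the tissue table, 16 in that of fluid and 17 in that of sperm. In RefSeq their genes are 86 to 93 bases (Tyr-GTA), 105 to 107 bases (Leu-CAA), 94 bases (Ile-TAT) and 74 to 87 bases (Arg-TCT) long, beside a median of 72 bases for all 403 nuclear tRNA genes. They took 10.1% to 20.8% of the locus counts in the tissue groups, 8.47% to 16.4% in the fluid groups and 11.2% to 14.3% in sperm. In corpus fluid they took 8.24%, 13.1% and 11.2% of the locus counts in WT and 16.9%, 17.8% and 14.6% in KO, without overlap.

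Within tissue, the libraries with replicate number 3 stood apart. Their intron-anticodon share was 28.9% (WT caput), 31.4% (KO caput), 25.5% (WT corpus), 15.7% (WT cauda) and 18.3% (KO cauda), the highest of its group each time, whereas the other 12 tissue libraries had 5.87% to 19.0%. The loci tRNA-Glu-CTC-1-7, tRNA-Lys-CTT-3-3 and tRNA-Val-TAC-1-1 were lowest in the replicate 3 library of every group that had one. KO corpus tissue has no such library, so its comparison with WT corpus is not balanced for this. Total counts were 67360266 to 249732714 in these 5 libraries and 30142156 to 108065213 in the others. The labels do not say what the numbers stand for, and the part of depth in this pattern was not tested. The tissue comparisons are therefore also given without these 5 libraries, a setting added once the data had been seen, which leaves 2 libraries in each group.

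Tests were made with edgeR's quasi-likelihood test over all RNAs of a table, with Benjamini-Hochberg adjusted p-values, and a locus was called where the adjusted p was below 0.05 and the log2 fold change was beyond 1 in either direction. The filter on low counts left 266 tissue, 138 fluid and 35 sperm loci for testing. A mean count under 10 was seen for 94 loci of tissue, 158 of fluid and 160 of sperm. For fits with 1 library left out, the share of all RNAs called was not counted. Their numbers of loci show how the calls moved, not how the loci stood beside other RNAs.

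In WT corpus tissue 8 of 266 loci were higher than in WT caput and none was lower, while 9% of all RNAs tested were called higher and 2.81% lower. The 8 were 2 Gly-CCC, 5 Gly-TCC and 1 Val-AAC locus, all with levels under 5 CPM. Among them, tRNA-Gly-TCC-1-2, tRNA-Gly-TCC-1-3 and tRNA-Gly-TCC-1-4 had the same counts and cannot be told apart. tRNA-Gly-TCC-1-1 was at 1.31, 0.926 and 1.27 CPM in WT caput and at 4.52, 4.36 and 2.58 CPM in WT corpus, 1.70 higher on the log2 scale (SE 0.51, adjusted p = 0.0403), and the libraries did not overlap. tRNA-Val-AAC-5-1 was at 0.0747, 0.0975 and 0.0666 CPM in WT caput and 0.573, 0.557 and 0.257 CPM in WT corpus (2.52, SE 0.74, adjusted p = 0.033). The 2 Gly-CCC loci, which had the same counts, rested on 0 to 10 counts per library. The median log2 fold change was 0.67 over the loci and 0.08 over all RNAs tested. It was 0.22 over the loci with TMM factors from RNAs other than tRNA and rRNA, where all RNAs had a median of -0.35.

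The count of loci in this comparison rested on the libraries used. Same-numbered libraries deviated together here. Blocking on the replicate number gave 1 lower and 32 higher loci (3.93% of all RNAs called lower and 15.2% higher). Without the replicate 3 libraries 85 of 234 loci were higher and none was lower (18.8% and 4.41% of all RNAs). Among the 85 were 7 of 7 Gly-TCC loci, 9 of 10 Glu-CTC loci, 12 of 14 Asp-GTC loci and 6 of 6 Glu-TTC loci. Some of the Gly-TCC loci had the same counts and are not separate results. tRNA-Glu-CTC-1-7 was 1.80 higher (SE 0.29, adjusted p = 0.00264). Leaving out 1 library at a time gave 0 to 13 loci, with 0 without WT caput replicate 2 or WT corpus replicate 1 or 2, 1 and 3 without WT caput replicates 1 and 3, and 13 without WT corpus replicate 3.

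In WT cauda tissue 6 of 266 loci were higher than in WT caput and 1 was lower, while 15.7% of all RNAs were called higher and 7.28% lower. tRNA-iMet-CAT-1-1 was at 25.4, 17.2 and 55.6 CPM in WT caput and at 87.2, 97.5 and 278 CPM in WT cauda, and every cauda library was above every caput library. It was 2.24 higher on the log2 scale (SE 0.58, adjusted p = 0.00914). tRNA-Met-CAT-1-1 was 2.70 higher (SE 0.85, adjusted p = 0.0282), from 0.523, 0.195 and 1.75 CPM to 1.26, 3.89 and 11.1 CPM, with overlap. tRNA-Arg-CCT-4-1 was 1.26 higher (SE 0.34, adjusted p = 0.0121), and 3 Leu-CAG loci with the same counts were 2.35 higher (SE 0.66, adjusted p = 0.0145) at levels up to 0.504 CPM. The locus tRNA-Cys-GCA-5-1 fell by 1.23 on the log2 scale (SE 0.35, adjusted p = 0.0157), from 1.72, 1.27 and 1.60 CPM to 0.73, 0.534 and 0.686 CPM.

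Blocking on the replicate number gave 3 lower and 27 higher loci in WT cauda against WT caput tissue (9.95% of all RNAs called lower and 19.7% higher). Without the replicate 3 libraries 2 of 234 loci were lower and 36 higher (6.62% and 19.8% of all RNAs). tRNA-iMet-CAT-1-1 was 2.23 higher without them (SE 0.50, adjusted p = 0.00624). Of the fits that left out 1 library, that without WT caput replicate 3 called 14 loci and that without WT caput replicate 2 called 2. Scaling decided the split of these calls: TMM factors from other RNAs gave 5 lower and 1 higher locus, with a median of -0.18 over the loci and -0.60 over all RNAs, in place of 0.38 and -0.05. Smooth muscle miRNAs (Mir143 and Mir145a) summed to 20.6 to 40.3 CPM in WT caput tissue and 108 to 215 CPM in WT cauda tissue, and their part in these differences was not tested. In bulk tissue, fewer cells of a type and less RNA per cell cannot be told apart.

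**Figure D3:**
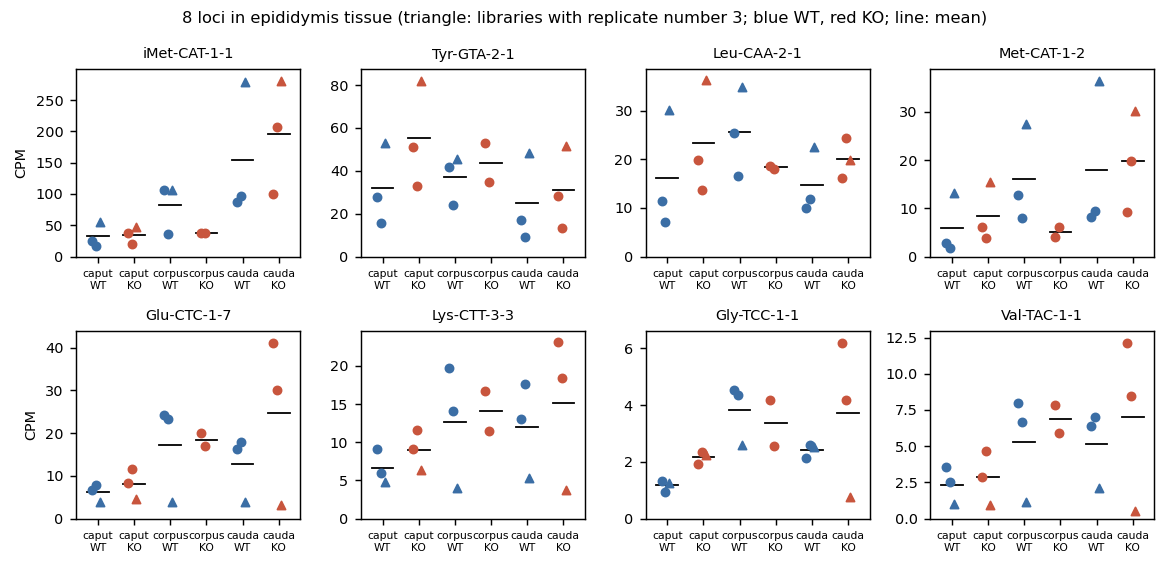
CPM (y axis) of 8 tRNA gene loci in epididymis tissue by segment and genotype, 1 point per library with the group mean as a line, libraries with replicate number 3 as triangles. The triangles are mostly the highest points in the upper row (iMet-CAT, Tyr-GTA, Leu-CAA and Met-CAT loci) and the lowest for Glu-CTC, Lys-CTT and Val-TAC loci in the lower row.

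Between KO and WT tissue, edgeR without a replicate block called no locus in any segment. In caput tissue it called no RNA. Before adjustment 0 of 266 loci were lower and 1 was higher at p under 0.05 (0.659% and 0.315% of all RNAs), namely the serine locus tRNA-Ser-GCT-4-3, with 0.131, 0.0488 and 0.144 CPM in WT and 0.243, 0.281 and 0.191 CPM in KO. The median was 0.37 over the loci and 0.04 over all RNAs, and 38 of 266 loci had a log2 fold change below 0, beside 45.1% of all RNAs. DESeq2 called none of the loci either. Without the replicate 3 libraries no RNA was called, and the median was 0.28 over the loci and -0.06 over all RNAs. In corpus tissue, with 2 KO libraries, edgeR again called no RNA, whereas DESeq2 called 24 RNAs lower (0.507% of those it tested). Before adjustment 4 loci were lower and 1 was higher at p under 0.05 (7.22% and 0.774% of all RNAs), and no locus was among the 24. The smallest p was that of tRNA-Trp-CCA-5-1, with 2, 6 and 18 counts in WT and none in KO (adjusted p = 0.432). The corpus median was 0.08 over the loci and -0.04 over all RNAs. Without the replicate 3 libraries it was -0.3 over the loci and -0.19 over all RNAs, and no RNA was called.

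In cauda tissue edgeR called no locus, while 0.86% of all RNAs were called, and before adjustment 1 locus was lower and 18 were higher at p under 0.05 (7.37% and 7.74% of all RNAs). DESeq2 called 106 RNAs lower and 69 higher (3.7% of those it tested), of which 1 was a locus, higher in KO. Without KO replicate 3, edgeR also called 1 locus. The locus with the smallest p was tRNA-Ser-TGA-1-1, with 0.133, 0.611 and 0.478 CPM in WT and 1.32, 1.54 and 0.96 CPM in KO, without overlap (log2 fold change 1.61, SE 0.47, adjusted p = 0.124). The median over the loci was 0.53, against 0.12 over all RNAs, and 51 of 266 loci had a log2 fold change below 0, beside 43.9% of all RNAs. By library size alone the median was -0.15 over the loci and -0.42 over all RNAs, so their direction depended on scaling, while the loci lay 0.27 to 0.41 above the median of all RNAs under each of the 4 scalings.

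Same-numbered WT and KO libraries of cauda tissue deviated together. Blocking on the replicate number gave 1 lower and 7 higher loci in KO (3.56% of all RNAs called lower and 5.79% higher). The 7 were tRNA-Ala-AGC-7-1, tRNA-Ser-TGA-1-1, tRNA-Glu-CTC-2-1, tRNA-Cys-GCA-3-4, tRNA-Arg-ACG-3-1, tRNA-Tyr-GTA-1-4 and tRNA-Ile-TAT-1-1. tRNA-Arg-ACG-3-1 was at 4.58, 5.5 and 7.69 CPM in WT and 11.1, 14.1 and 12.7 CPM in KO, higher in each pair (1.10 with the block, SE 0.32, adjusted p = 0.0337). The lower locus was tRNA-Asp-GTC-4-1, with at most 0.2 CPM in any of these libraries. Without the replicate 3 libraries 21 of 234 loci were higher and none was lower (6.52% and 2.04% of all RNAs), and 7 of these 21 were Glu-CTC loci.

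The tRF rows of the same isodecoders had negative medians in KO cauda tissue. Taken per locus, the median log2 fold change was -0.55 for 5′ tRFs, -0.45 for 3′ tRFs and -0.69 for other tRFs, and 0.80 for full-length tRNAs over the 154 loci that had such a row. A test of whether the KO effect differed between cauda and caput tissue called no RNA with edgeR or DESeq2. Blocking on the replicate number called 16 RNAs lower (0.459%), none of them a locus. Before adjustment, without the block, 2 loci were lower and 1 was higher at p under 0.05 (3.67% and 2.38% of all RNAs).

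Between WT cauda and WT caput fluid 11 of 138 loci were lower and 12 were higher, with 15.4% of all RNAs called lower and 9.69% higher. The locus with the smallest p was tRNA-Phe-GAA-1-1, a phenylalanine locus, with 4.79, 15.4 and 8.98 CPM in WT caput fluid, 0.896, 3.39 and 3.62 CPM in WT corpus fluid and no count in the 3 WT cauda libraries. Against a floor of 3 matches per library it was at least 13.9-fold lower in cauda than in caput fluid (adjusted p = 2.72e-05). The 3 KO cauda libraries held it at 1.55, 2.58 and 0.333 CPM.

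tRNA-Met-CAT-1-1 was lower in both later segments, going from 71.6, 67.9 and 92.8 CPM in WT caput fluid to 10.2, 21.5 and 22.5 CPM in WT corpus fluid and 7.36, 12.7 and 8.16 CPM in WT cauda fluid, where corpus and cauda overlapped. It was 2.10 lower in corpus than in caput on the log2 scale (a change of -2.10, SE 0.41, adjusted p = 0.00241) and changed by -3.04 to the cauda (SE 0.43, adjusted p = 6.91e-05). The other copy, tRNA-Met-CAT-1-2, went from 25, 17.1 and 33.8 CPM in the caput to 3.31, 10.7 and 7.14 CPM in the cauda (-1.84, SE 0.48, adjusted p = 0.00855). tRNA-Ala-AGC-6-1 (-3.13, SE 0.59, adjusted p = 0.000823), tRNA-Arg-ACG-3-1 (-2.82, SE 0.70, adjusted p = 0.00601) and tRNA-Tyr-GTA-2-1 (-1.50, SE 0.41, adjusted p = 0.0113) also fell. In each of these loci every caput library lay above every cauda library.

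The loci that rose from WT caput to WT cauda fluid were copies of Val-CAC, Val-AAC, Val-TAC, Gly-GCC and Trp-CCA and the initiator locus. tRNA-iMet-CAT-1-1 went from 18.9, 10.5 and 11.7 CPM to 28.5, 57.8 and 58.8 CPM (1.82, SE 0.62, adjusted p = 0.0353). tRNA-Val-CAC-2-5 had counts in 1 of 3 caput libraries (0.599 CPM) and was at 5.89, 2.82 and 3.40 CPM in the cauda (4.22, SE 0.92, adjusted p = 0.00264). tRNA-Val-TAC-1-1 went from 0.532, 0 and 0.898 CPM to 1.84, 5.28 and 6.12 CPM (3.11, SE 0.88, adjusted p = 0.0136). tRNA-Val-CAC-2-4 went from 0, 0 and 1.2 CPM to 2.39, 3.35 and 5.1 CPM (3.10, SE 0.95, adjusted p = 0.0209). tRNA-Gly-GCC-2-4 went from 1.33, 2.45 and 3.29 CPM to 7.36, 7.57 and 8.5 CPM (1.73, SE 0.55, adjusted p = 0.0267), and tRNA-Gly-GCC-2-5 changed alike (1.93, SE 0.63, adjusted p = 0.0292). No caput library of these loci reached the lowest cauda library. tRNA-Trp-CCA-3-2 and tRNA-Val-AAC-1-2 had no count in WT caput fluid and at most 1.58 and 0.92 CPM in the cauda, so that no bound on their fold is informative.

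**Figure D4:**
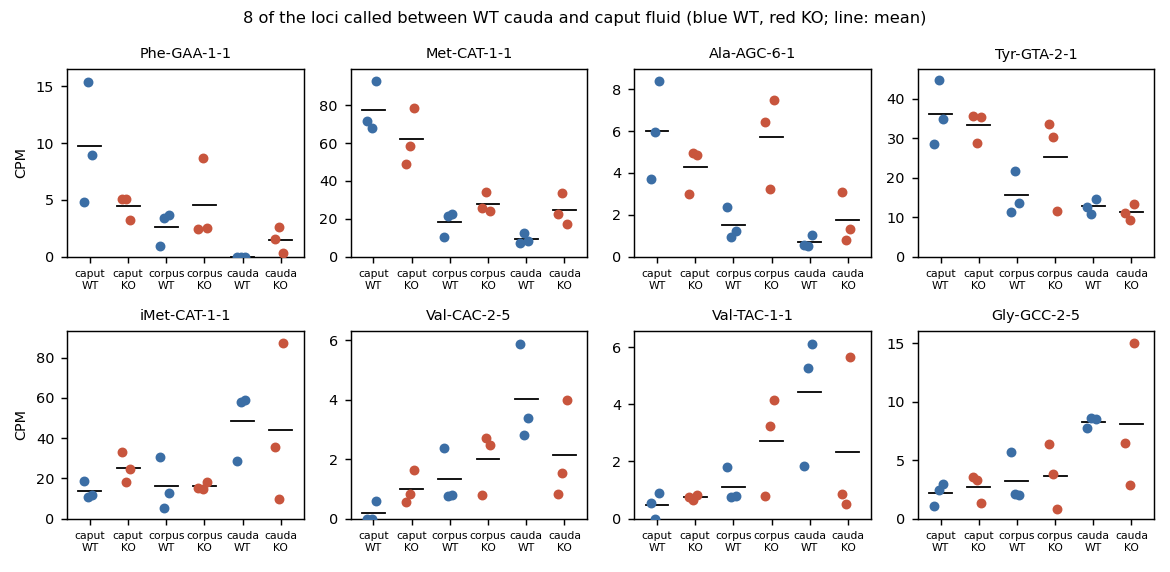
CPM (y axis) of 8 tRNA gene loci in fluid by segment and genotype, 1 point per library with the group mean as a line, WT blue and KO red. The upper row shows loci that fell from WT caput to WT cauda fluid and the lower row loci that rose, and tRNA-Phe-GAA-1-1 is at 0 in WT cauda but not in KO cauda fluid.

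Sums over the copies of an anticodon showed the size of these shifts. In WT fluid the Met-CAT loci went from 128 ± 21.1 CPM (SD, n = 3) in the caput through 45.6 ± 12.5 in the corpus to 30.5 ± 14.6 in the cauda. The Tyr-GTA loci went from 66.2 ± 5.73 through 34.8 ± 8.31 to 32.6 ± 10.2 CPM. Upwards went the Gly-GCC loci (50.1 ± 4.82, 58.2 ± 21.1 and 124 ± 14.0 CPM), the iMet-CAT loci (17.1 ± 4.15, 20.7 ± 14.2 and 55.1 ± 20.4 CPM) and the Val-CAC loci (2.27 ± 1.13, 8.69 ± 5.22 and 15.8 ± 2.96 CPM). The Val-AAC loci were at 0.366 ± 0.403, 2.69 ± 2.71 and 2.79 ± 0.956 CPM. The Glu-TTC loci (7.43 ± 2.83, 3.34 ± 0.593 and 6.66 ± 1.21 CPM), the Gly-CCC loci (6.05 ± 3.46, 4.94 ± 2.65 and 6.47 ± 2.18 CPM) and the Gln-TTG loci (2.20 ± 2.17, 0.333 ± 0.305 and 0.884 ± 0.767 CPM) had no such order, and the selenocysteine locus stayed at or below a mean of 1.14 CPM.

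For 15 of the 23 loci the 5′ tRFs of the isodecoder were called in the same direction along WT fluid, and for 1 in the opposite direction. Among all 183 rows of 5′ tRFs tested, 67 were called lower and 27 higher in WT cauda than in WT caput fluid. Copies of the same isodecoder, such as those of Gly-GCC-2, share the same 5′ tRF row, so the 15 loci are not 15 separate rows. The 5′ tRFs of Met-CAT-1 changed by -5.35 between cauda and caput (SE 0.82, adjusted p = 0.000137), those of Ala-AGC-6 by -3.41, those of Phe-GAA-1 by -3.06 and those of Tyr-GTA-2 by -2.52, all called. The 5′ tRFs of Val-CAC-2 rose by 2.0 and those of Val-AAC-5 by 2.22, both called. Isodecoders with the same 5′ end have nearly the same counts in these rows (Ala-AGC-6 and Ala-AGC-7, for example), so the rows are not independent. For the initiator the 5′ tRFs were not called (0.39, SE 0.51, adjusted p = 0.6), and tRNA-Trp-CCA-3-2 rose while its 5′ tRFs fell by 2.7. Across 137 loci with a 5′ tRF row, 102 had the same sign as that row. Without WT caput replicates 1, 2 or 3 edgeR called 8, 9 or 10 loci between WT cauda and WT caput fluid, and without WT cauda replicates 1, 2 or 3 it called 11, 21 or 9. With locus counts divided by 2, fewer than 23 loci were called.

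Between WT corpus and WT caput fluid 8 loci were lower and 2 were higher, with 9.54% and 8.21% of all RNAs called in these directions. Beside tRNA-Met-CAT-1-1 the lower loci were tRNA-Arg-ACG-1-1, tRNA-Ala-AGC-6-1, tRNA-Leu-CAA-2-1, tRNA-Tyr-GTA-2-1, tRNA-Phe-GAA-1-1, tRNA-Glu-TTC-1-2 and tRNA-Met-CAT-3-1, and the higher ones were tRNA-Val-AAC-1-2 and tRNA-Trp-CCA-3-2. tRNA-Glu-TTC-1-2 and tRNA-Met-CAT-3-1 had no count in WT corpus fluid, and the 2 higher loci had none in WT caput fluid. Against the floor, the bounds on the folds of these loci were 0.754 to 1.28, so their sizes are not known. The locus tRNA-Arg-ACG-1-1 went from 1.86, 2.80 and 2.69 CPM to 0, 0.188 and 0 CPM, and its log2 fold change was -4.59 (SE 0.69, adjusted p = 0.00114). Of the 13 tested loci of intron anticodons 12 had a log2 fold change below 0 (58.3% of all RNAs) and 2 were called, with a median of -1.2. With 1 library left out 3 to 7 loci were called, with 3 or 4 unless the library was WT corpus replicate 1.

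In caput fluid edgeR called no locus and no other RNA between KO and WT. Before adjustment 16 of 138 loci were higher in KO and 0 were lower at p under 0.05 (5.44% and 5.14% of all RNAs). DESeq2 called 2 RNAs lower and 7 higher (0.3% of those it tested), of which 1 was a locus, higher in KO. tRNA-Arg-ACG-1-1 was at 1.86, 2.80 and 2.69 CPM in WT and 10.9, 10.5 and 8.39 CPM in KO (log2 fold change 2.02, adjusted p = 0.139). tRNA-Arg-TCT-1-1 was at 1.33, 0.70 and 0.599 CPM in WT and 4.33, 4.61 and 3.52 CPM in KO, and tRNA-Ile-TAT-2-3 at 2.13, 2.80 and 2.10 CPM in WT and 6.59, 5.76 and 7.31 CPM in KO. These groups did not overlap, as was so for 37 of 138 loci and for 26% of all RNAs tested. The median was 0.54 over the loci and 0.01 over all RNAs.

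In KO corpus fluid 10 of 138 loci were higher and 1 was lower than in WT, while 13.5% of all RNAs were called higher and 6.23% lower, so the loci were called in no larger share than RNAs at large. With locus counts divided by 2, fewer loci were called. tRNA-Arg-ACG-1-1 had 0, 0.188 and 0 CPM in WT and 2.41, 2.16 and 1.66 CPM in KO, and was 4.36 higher (SE 0.73, adjusted p = 0.00167). This rests on 0, 2 and 0 deposited counts in WT and 6, 8 and 4 in KO, where 2 counts appear to stand for 1 match. tRNA-Tyr-GTA-3-2, the best counted of the 11, was at 7.47, 9.04 and 8.46 CPM in WT and 29.7, 20.5 and 21.5 CPM in KO (1.52, SE 0.39, adjusted p = 0.00858). tRNA-Ala-AGC-6-1 was at 2.39, 0.942 and 1.21 CPM in WT and 6.42, 3.24 and 7.46 CPM in KO (1.90, SE 0.57, adjusted p = 0.0238).

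Other loci called higher in KO corpus fluid rested on fewer counts. tRNA-Ile-TAT-2-3 was at 0, 1.32 and 0.403 CPM in WT and 4.81, 1.62 and 4.14 CPM in KO, tRNA-Leu-TAG-3-1 at 1.19, 1.51 and 0 CPM in WT and 2.41, 3.24 and 14.9 CPM in KO, and tRNA-Arg-CCT-4-1 at 0.597, 0.753 and 0 CPM in WT and 6.42, 2.70 and 3.31 CPM in KO. tRNA-Arg-TCT-1-1 reached 4.14 CPM in 1 KO library and 0.802 and 0.54 CPM in the others. The loci tRNA-Leu-CAA-2-1, tRNA-Pro-AGG-1-3 and tRNA-Glu-TTC-1-2 overlapped between the groups, and tRNA-Glu-TTC-1-2 had counts in KO replicate 2 alone, without which its fitted log2 fold change was 0. The lower locus, tRNA-Gly-GCC-2-3, had 22, 16 and 18 counts in WT and 0, 2 and 2 counts in KO (-2.53, SE 0.72, adjusted p = 0.0182).

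**Figure D5:**
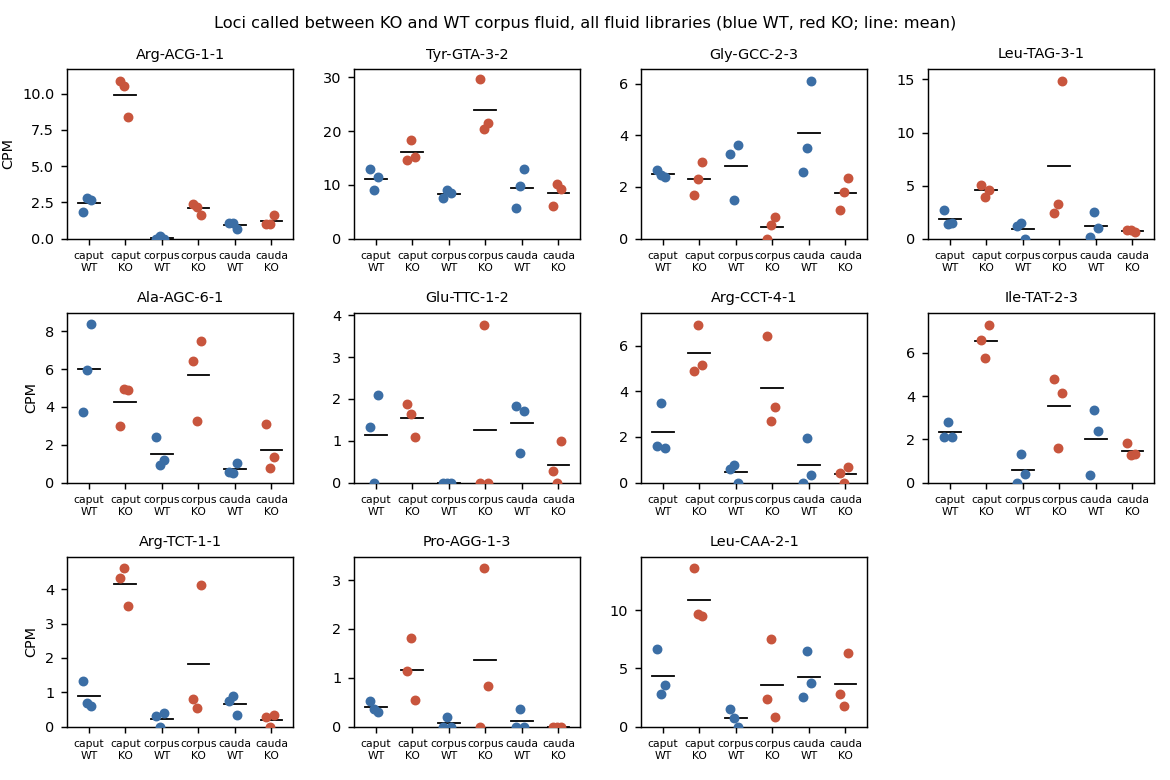
CPM (y axis) of the 11 tRNA gene loci called between KO and WT corpus fluid, in all 18 fluid libraries by segment and genotype, 1 point per library with the group mean as a line. In corpus fluid the KO mean lies above the WT mean in 10 panels, with overlapping points in those of Glu-TTC-1-2, Pro-AGG-1-3 and Leu-CAA-2-1, and below it in that of tRNA-Gly-GCC-2-3. For tRNA-Arg-ACG-1-1, tRNA-Arg-TCT-1-1 and tRNA-Ile-TAT-2-3 the KO caput libraries are above the WT caput libraries as well.

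Of the 13 tested loci of intron anticodons 1 had a log2 fold change below 0 in KO corpus fluid (46.5% of all RNAs) and 4 were called higher, with a median of 1.83 beside 0.48 over all loci and 0.10 over all RNAs. Per 100 mature tRNA counts of the same anticodons they had 0.0472 ± 0.0125 counts in WT and 0.136 ± 0.0319 in KO (SD, n = 3 each), without overlap. In the mature rows, the other tRFs of Arg-ACG-1 (-1.98, adjusted p = 0.00244), Arg-TCT-1 (-2.07, adjusted p = 0.00235), Ile-TAT-2 (-2.36, adjusted p = 0.00342), Tyr-GTA-3 (-1.43, adjusted p = 0.0181), Arg-CCT-4 (-1.53, adjusted p = 0.0199) and Ala-AGC-6 (-1.33, adjusted p = 0.0496) were lower in KO corpus fluid, opposite to their loci. Such a fall was common among other tRFs, of which 79 of 198 rows tested were called lower and 0 higher, with a median of -1.02. The rise in KO was not particular to the loci. Over the 24 full-length tRNA rows tested the median was 2.19 in corpus fluid, 2.0 in caput fluid and -0.26 in cauda fluid. The loci had medians of 0.48, 0.54 and -0.31 there. Of 8 other RNA polymerase III transcripts 3 were higher in KO corpus fluid, the Y RNAs Rny1 (2.05, SE 0.40, adjusted p = 0.00235) and Rny3 (2.04, SE 0.71, adjusted p = 0.0455) and 7SK (Rn7sk, 1.48, SE 0.43, adjusted p = 0.0201). In WT cauda against WT caput fluid 3 of the 8 (Rny3, Rn7sk and Vaultrc5) were lower, and none was called in the other comparisons.

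The KO corpus fluid libraries were the shallowest of the fluid table, with 1948718 to 3373869 counts beside 3989262 to 10172577 in WT, and 984 to 1876 locus counts. Epithelial miRNAs (Mir200a, Mir200b, Mir200c, Mir141 and Mir429) summed to 27.1 to 62.6 CPM in WT and 87.5 to 134 CPM in KO corpus fluid, those of male germ cells to 3.58 to 9.06 and 12.8 to 15.4 CPM, and none of these markers was at 0 in either group. The part of such cell material in the loci was not tested. In caput fluid the epithelial sum was 103 to 182 CPM in WT and 241 to 298 CPM in KO. With TMM factors from other RNAs 3 loci were lower and 2 were higher in KO corpus fluid, with a median of -0.36 over the loci and -0.71 over all RNAs, so the loci kept a median 0.35 above that of all RNAs while the direction turned. Leaving out 1 library gave 3 to 11 calls, with 6, 3 and 3 without WT replicates 1, 2 and 3 and 4 without KO replicate 1. tRNA-Arg-ACG-1-1 was called in each of these fits.

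In cauda fluid no locus and no other RNA was called between KO and WT by edgeR. DESeq2 called 10 RNAs lower and 32 higher (1.4% of those it tested), of which 4 were loci, 1 lower and 3 higher. With 1 library left out, edgeR called 5 loci without WT replicate 2 and 4 without KO replicate 3, where the share of all RNAs was not counted. Before adjustment 6 loci were lower and 5 higher at p under 0.05 (2.82% and 6.48% of all RNAs). tRNA-Phe-GAA-1-1, with no count in WT cauda fluid, had the smallest p (adjusted p = 0.0992). tRNA-Met-CAT-1-1 was at 7.36, 12.7 and 8.16 CPM in WT and 22.6, 33.8 and 17.3 CPM in KO, without overlap. The median was -0.31 over the loci and 0.09 over all RNAs.

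The KO effect differed between corpus and cauda fluid for 5 loci, at an adjusted p under 0.05 for the interaction, where 4.5% of all RNAs were called higher and 2.87% lower. It was larger in the corpus for tRNA-Arg-ACG-1-1 (4.05, SE 0.90, adjusted p = 0.0196), tRNA-Arg-TCT-1-1 (4.68, SE 1.34, adjusted p = 0.0343), tRNA-Glu-CTC-1-6 (2.35, SE 0.66, adjusted p = 0.0329) and tRNA-Glu-TTC-1-2 (8.26, SE 2.31, adjusted p = 0.033), and smaller for tRNA-Phe-GAA-1-1 (-5.73, SE 1.52, adjusted p = 0.027). tRNA-Glu-TTC-1-2 had no count in WT corpus fluid and counts in 1 KO corpus library alone. tRNA-Phe-GAA-1-1 had no count in WT cauda fluid. The sizes of these 2 differences are therefore not known. tRNA-Glu-CTC-1-6 was at 5.38, 5.27 and 9.26 CPM in WT and 13.6, 8.64 and 7.46 CPM in KO corpus fluid, and at 13.6, 11.4 and 15.6 CPM in WT and 3.37, 2.06 and 6.66 CPM in KO cauda fluid. These calls numbered 0 without WT corpus replicate 1, KO corpus replicate 1, WT cauda replicate 3 or KO cauda replicate 2, 2 or 3 without 6 others, and 9 without WT cauda replicate 1 or KO cauda replicate 3. With locus counts divided by 2, fewer than 5 loci were called.

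In sperm none of the 35 tested loci was called between KO and WT by edgeR, nor was any other RNA. DESeq2 called 135 RNAs lower and 5 higher (3.41% of those it tested), of which 1 was a locus, and edgeR called 1 locus without WT replicate 4. Before adjustment 2 loci were lower and 1 was higher in KO at p under 0.05 (9.48% and 8.02% of all RNAs). tRNA-Gly-GCC-2-6 was at 4.48, 0.78, 5.29 and 0.723 CPM in WT and 0.142, 0.505, 0.271 and 0 CPM in KO, without overlap (log2 fold change -3.32, adjusted p = 0.116), as was so for 6 of 35 loci and 9.4% of all RNAs. Its share of the counts of its isodecoder's copies was 25% to 100% in WT and 0% to 16.7% in KO sperm. tRNA-iMet-CAT-1-1 was at 20.6, 11.7, 13.7 and 10.8 CPM in WT and 12.2, 13.1, 12.3 and 21.3 CPM in KO, which overlapped. Depth limits these values, since 3 of 4 WT libraries and 1 of 4 KO libraries held 1134840 to 3618739 counts and only 98 to 270 locus counts. Without these 4 libraries, a setting also added once the data had been seen that leaves 1 WT library, the median over the loci was -0.62 in place of 0.13. Over all RNAs it was 0.09. With 1 WT library, the p-values of that fit are not informative.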

How the data were processed

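Read counts per RNA of 17 tissue, 18 fluid and 8 sperm libraries were used as deposited. The authors had trimmed the reads with cutadapt and UMI-tools (named in the submitters' processing notes, without versions), mapped them to mm10, mature tRNAs and rRNAs with bowtie2 and counted them with a modified tRAX pipeline without normalization. Columns of samples unknown here numbered 0.

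Samples were grouped by title. Each table was analyzed on its own with edgeR 4.0.16 in R 4.3.3: filterByExpr by group (minimum count 10, minimum total 15), TMM scaling, 1 quasi-likelihood model of all groups, and Benjamini-Hochberg adjustment over all RNAs of the table that passed the filter (3488 for tissue, 2023 for fluid, 2480 for sperm). DESeq2 1.42.0 was an alternative. CPM use TMM-scaled library sizes. The floor for a group without counts was 3 matches (6 deposited counts) per library. The model was tested on simulated data. By the study's methods each fluid or sperm replicate was a pool of several mice, and tissue replicates were biological replicates.

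Same-numbered libraries correlated in their deviations from the group means in WT and KO cauda tissue (0.281, 0.272 and 0.596), WT corpus and caput tissue (0.312, 0.383 and 0.555) and WT cauda and caput tissue (0.306, 0.394 and 0.633), so their blocked counts are given beside the results. In WT and KO caput tissue these correlations were 0.0288, 0.518 and 0.723, and the block called no RNA there. The pairing comes from the data, not the labels.

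Named loci were the 10 with the highest mean CPM of a table and those called in a comparison (up to 10, otherwise the 5 lower and 5 higher with the smallest p and no overlap, or the 1 with the smallest p where none was called), with sums for anticodons with introns and those of the study's main tRFs. Other loci, such as examples in fluid and tissue beside these, were chosen after their values were seen. The members and lists were chosen with earlier results of these data known.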

Additional observations from a re-analysis of the deposited data

Results flagged for a closer look

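For 3 of the 10 most abundant sperm loci, 1 of the 4 KO sperm libraries stood apart from the others, and it was not the same library each time. The highest value was 21.3 CPM for tRNA-iMet-CAT-1-1 (median of the others 12.3 CPM), 4.18 CPM for tRNA-Met-CAT-1-2 (2.08 CPM) and 4.8 CPM for tRNA-Arg-ACG-3-1 (1.47 CPM). Dixon's test at the 95% level was applied to 22 groups of 4 libraries, of which about 1 in 20 would be singled out without any real difference. For tRNA-iMet-CAT-1-1 and tRNA-Arg-ACG-3-1 the high value belonged to replicate 4, the library with 270 locus counts. That of tRNA-Arg-ACG-3-1 rests on 14 counts. For tRNA-Met-CAT-1-2 it belonged to replicate 1.

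The effect of the KO differed between corpus and cauda fluid by the interaction test for 5 loci. The differences on the log2 scale were 4.05 for tRNA-Arg-ACG-1-1, 4.68 for tRNA-Arg-TCT-1-1, 2.35 for tRNA-Glu-CTC-1-6, 8.26 for tRNA-Glu-TTC-1-2 and -5.73 for tRNA-Phe-GAA-1-1. The value of tRNA-Glu-TTC-1-2 rests on 1 KO corpus library, and that of tRNA-Phe-GAA-1-1 on the absence of counts in the 3 WT cauda libraries.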

How the results depend on the processing

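Of 1053 pairs of a single-locus result and an alternative, 672 kept direction and call, 369 kept the direction and lost the call, 11 gained a call and 1 lost its direction. The last was tRNA-Glu-TTC-1-2 for KO against WT corpus fluid, at 0 without KO replicate 2. Over all its 13 alternatives it ranged from 0 to 7.01. Counts of loci called that moved were as follows. KO against WT in cauda tissue: 1 by DESeq2, 8 with the replicate block and 21 without the libraries numbered 3. Caput fluid: 1 by DESeq2 and 3 with the compared groups alone. Corpus fluid: 7 by library size, 5 with TMM factors from other RNAs, 7 without the filter, 4 with the compared groups alone and 6 with locus counts divided by 2 (chosen after the data were seen). Cauda fluid: 4 by DESeq2, 1 without the filter and 1 with the block. Sperm: 1 by DESeq2. WT corpus against caput tissue: 2 with DESeq2's size factors, 0 by library size, 2 with TMM factors from other RNAs, 3 without the filter, 3 with the compared groups alone, 33 with the block, 2 with copies summed by isodecoder, 5 with 1 locus kept of those with the same counts and 85 without the libraries numbered 3. WT cauda against caput tissue: 1 by library size, 30 with the block and 38 without the libraries numbered 3. WT corpus against caput fluid: 5 by library size, 5 with TMM factors from other RNAs and 6 with counts divided by 2. WT cauda against caput fluid: 11 by isodecoder and 15 with counts divided by 2. The interaction in fluid: 0 by library size, 3 with TMM factors from other RNAs, 8 by DESeq2, 3 without the filter and 2 with counts divided by 2. In further comparisons the block gave 11 loci for KO against WT corpus fluid, 12 and 22 for WT corpus and cauda against caput fluid and 5 for the interaction. It called none for KO against WT in caput and corpus tissue, caput fluid and sperm. Each pair's correlation was highest with its own number in WT corpus against caput fluid, though low (0.0645, 0.0817 and 0.0577). In KO against WT caput tissue this was so for replicates 2 and 3 and not for replicate 1. In the rest of these comparisons it was not so for every pair.

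Leaving out 1 library gave 0 to 1 loci for KO against WT in cauda tissue and in sperm, 3 to 11 in corpus fluid, 0 to 5 in cauda fluid, and 0 in caput and corpus tissue and caput fluid. It gave 0 to 13 and 2 to 14 for WT corpus and cauda against caput tissue, 3 to 7 and 8 to 21 for the same in fluid, and 0 to 9 for the interaction in fluid and 0 for that in tissue. The ratio of the locus share between KO and WT ran from 1.04 to 1.27, 0.826 to 0.914 and 0.781 to 1.27 in caput, corpus and cauda tissue, from 1.36 to 1.64, 1.37 to 1.44 and 0.756 to 1.19 in the fluids, and from 0.763 to 1.06 in sperm. For WT corpus and cauda against caput it ran from 1.27 to 1.46 and 0.925 to 1.51 in tissue and from 0.779 to 0.817 and 0.798 to 1.06 in fluid. Per mature tRNA count the ratio was 0.984 (KO to WT, corpus tissue), 2.22 (cauda tissue), 2.39 (WT corpus to caput tissue) and 2.19 (WT cauda to caput tissue). The causes were not tested. With under 10 counts in most fluid and sperm loci, small differences were not detectable at this depth.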
